A study of Homo sapiens with 2 samples.

Results

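In TC32 cells, 969 intervals of the CUT&Tag library made with siNEG were strong and had their summit within 1 kb of an end of exactly 1 protein-coding gene. They were chosen from 16274 siNEG intervals on chromosomes 1 to 22 and X. The choice used only siNEG values and gene positions: a −log10 q-value of at least 20 at the summit, and a gene end, either the start or the far end, in RefSeq on GRCh38.p14. Of 2179 strong siNEG intervals, these were 44.5%, and the others lay at ends of 2 or more genes (404), inside a gene (393) or between genes (413). The 969 intervals touched 966 genes, since DAZAP2, PDPK1 and TRIM41 each had 2.

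TC32 is an established Ewing sarcoma cell line, and the design text names EWS-FLI binding as what was profiled. One library came from TC32 cells given siEWS-FLI and 1 from TC32 cells given siNEG. Both groups are the same cell line and the same commercial CUT&Tag chemistry, with 14 and then 20 cycles of PCR per the labels' protocols. The labels neither spell out siNEG nor name the antibody, and the dose of the siRNA and the time after it are not stated in these sources. With 1 library a group and 1 cell line there is no replicate check, so no p-value is given, and every interval below covers counting error only.

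EWS-FLI joins part of EWSR1 to the DNA-binding ETS domain of FLI1. The ETS domain recognises a GGAA core, and the fusion is known to use repeats of GGAA, often far from genes, which it can turn into enhancers. It is also known at single ETS sites, often in promoters, which normal ETS factors bind too. CUT&Tag tethers a transposase to an antibody, which cuts and tags the DNA nearby. Promoters of widely used genes often hold CpG islands and recurrent short elements such as ETS, NFY and SP sites. Since the antibody is not named, which protein a site reports cannot be told from these lists.

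The sequences of 6 promoters are examples of strong sites with and without the ETS match CCGGAAG. Each is the RefSeq promoter on GRCh38.p14, from 250 bases before to 50 after the gene start, written 5′ to 3′ on the gene's strand. Capitals mark every match to CCGGAAG in either direction, so a match on the other strand reads CTTCCGG. ZNF333 (chr19:14689798-14690097, plus strand) had the second highest −log10 q of all members. ZNF787 (chr19:56121246-56121545, minus strand) holds overlapping matches in both directions, 1 base from the siNEG summit, and another match near the start. TFB1M (chr6:155314435-155314734, minus strand) and MORC3 (chr21:36319947-36320246, plus strand) hold 1 match each. ZNF865 (chr19:55605397-55605696, plus strand) had the lowest siEWS-FLI pileup for its siNEG pileup. BRD3OS (chr9:134025231-134025530, plus strand) holds no match and had one of the highest. Absence of the match is not rare at strong sites: 64.0% of the 100 strongest members with a promoter held it. The promoters of TSSC4, MTMR4, P4HB and RPS19, also among the strongest members, held none. The 6 examples therefore do not show how often the match occurs or how it goes with the siEWS-FLI pileup.
ZNF333: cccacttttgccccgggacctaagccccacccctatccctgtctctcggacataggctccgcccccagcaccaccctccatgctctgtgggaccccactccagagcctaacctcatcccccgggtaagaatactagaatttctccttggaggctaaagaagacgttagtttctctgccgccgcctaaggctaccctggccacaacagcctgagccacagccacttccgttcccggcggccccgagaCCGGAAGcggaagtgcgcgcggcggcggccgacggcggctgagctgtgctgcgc
ZNF787: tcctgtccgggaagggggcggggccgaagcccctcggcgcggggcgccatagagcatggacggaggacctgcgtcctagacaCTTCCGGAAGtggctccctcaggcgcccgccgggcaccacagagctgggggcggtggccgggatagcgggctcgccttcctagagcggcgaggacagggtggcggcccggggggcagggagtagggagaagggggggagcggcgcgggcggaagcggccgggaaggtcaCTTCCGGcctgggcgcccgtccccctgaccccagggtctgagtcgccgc
TFB1M: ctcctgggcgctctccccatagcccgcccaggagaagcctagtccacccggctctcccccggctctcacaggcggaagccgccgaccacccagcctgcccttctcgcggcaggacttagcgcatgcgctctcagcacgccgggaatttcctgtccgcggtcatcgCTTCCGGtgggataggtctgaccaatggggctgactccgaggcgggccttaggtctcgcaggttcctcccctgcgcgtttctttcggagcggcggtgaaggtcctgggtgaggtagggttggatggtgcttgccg
MORC3: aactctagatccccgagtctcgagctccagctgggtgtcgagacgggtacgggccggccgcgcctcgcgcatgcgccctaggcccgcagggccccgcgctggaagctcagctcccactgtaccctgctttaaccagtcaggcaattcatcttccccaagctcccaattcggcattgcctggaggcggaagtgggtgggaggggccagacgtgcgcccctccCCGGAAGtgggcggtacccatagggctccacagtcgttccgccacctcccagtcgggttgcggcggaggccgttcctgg
ZNF865: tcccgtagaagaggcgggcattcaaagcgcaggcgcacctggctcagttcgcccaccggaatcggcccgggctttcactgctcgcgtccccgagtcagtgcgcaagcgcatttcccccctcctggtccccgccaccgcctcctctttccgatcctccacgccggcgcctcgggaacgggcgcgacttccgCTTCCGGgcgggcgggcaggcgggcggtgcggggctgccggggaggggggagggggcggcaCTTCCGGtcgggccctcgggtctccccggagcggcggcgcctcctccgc
BRD3OS: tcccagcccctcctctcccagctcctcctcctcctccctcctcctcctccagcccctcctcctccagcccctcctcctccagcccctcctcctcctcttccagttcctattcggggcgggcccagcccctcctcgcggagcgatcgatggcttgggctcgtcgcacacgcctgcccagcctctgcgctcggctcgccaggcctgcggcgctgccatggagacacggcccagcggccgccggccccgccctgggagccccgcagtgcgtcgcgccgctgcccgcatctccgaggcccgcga

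The next 10 stretches, from other strong members, are 27 bases each and are turned so that the match, in capitals, reads forward. They are shown to let the bases around the match be compared. They lie at chr19:8832343-8832369 (MBD3L1, minus strand), chr5:181223272-181223298 (TRIM41, minus strand), chr19:16660127-16660153 (SMIM7, plus strand), chr1:54764723-54764749 (PARS2, plus strand), chr1:1375188-1375214 (AURKAIP1, minus strand), chr1:40040701-40040727 (CAP1, plus strand), chr19:55280126-55280152 (HSPBP1, plus strand), chr20:2470814-2470840 (SNRPB, minus strand), chr11:18526957-18526983 (TSG101, minus strand) and chr6:33391635-33391661 (KIFC1, plus strand). The strand given is that on which the sequence reads.
MBD3L1: cccgcgcgagCCGGAAGgggacgtgca
TRIM41: acagccgatgCCGGAAGcgagggggtg
SMIM7: tccgtcagaaCCGGAAGcggaagcccc
PARS2: aatcaccgttCCGGAAGtactttctag
AURKAIP1: tggggacggaCCGGAAGtgcccgaggg
CAP1: cagtgagggcCCGGAAGtgggtcgcgc
HSPBP1: acggtttcacCCGGAAGtgccaggcgt
SNRPB: gtgagctggaCCGGAAGtaggtttcta
TSG101: ggacggcggcCCGGAAGtgacgtagtg
KIFC1: ataagtggcaCCGGAAGtggaattaat

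Most of the strong sites at single gene ends also had a siEWS-FLI interval, with a far lower summit. At least 1 base was shared with a siEWS-FLI interval by 657 of the 969 sites (67.8%, exact binomial 95% interval 64.8 to 70.7), and 312 had none. The same share was 15.6% of all siNEG intervals and 58.8% of all strong ones. Of the 3642 weaker siNEG intervals at single gene ends, 515 were shared (14.1%). Some siEWS-FLI intervals fell in the same site, so 678 of them met the 657 members.

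The summit pileup is the number of raw reads over the summit base, recovered from each line's deposited fold together with its −log10 p-value. In siNEG it ran from 20 to 1095 reads at the 969 sites, with a median of 43 and quartiles of 30 and 66. At the 657 shared sites the siEWS-FLI pileup ran from 4 to 123 reads, with a median of 9 and quartiles of 7 and 14. Only 68 of them reached 20 reads, and 333 lay under 10. By the −log10 q-value that chose the members, 38 would have been called strong in the siEWS-FLI library too.

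At shared sites the siEWS-FLI pileup divided by the siNEG pileup had a median of 0.182 and quartiles of 0.128 and 0.250. It was under 0.5 at 646 sites and 0.5 or more at 11. Pileups are not scaled for depth: over each whole library the background was 0.239 reads per base (siEWS-FLI) and 0.348 (siNEG), a ratio of 0.687. Selecting sites for a high siNEG value lowers this ratio by itself. Less binding, fewer cells or reads, and a less efficient reaction cannot be told apart with 1 library a group.

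**Figure D1:**
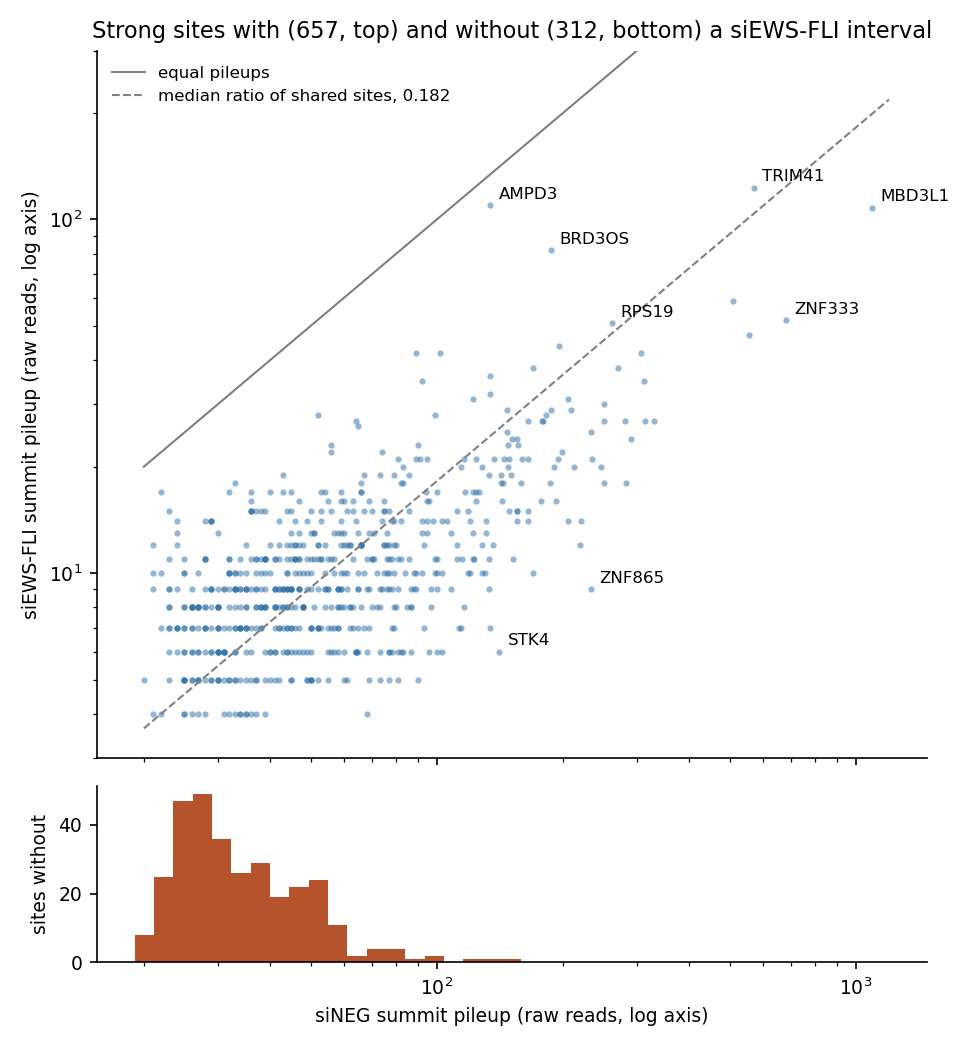
Each point is a strong site at a single gene end with a siEWS-FLI interval, at its raw summit pileup in siNEG (horizontal, log axis) and siEWS-FLI (vertical, log axis), with lines for equal pileups and for the median ratio of 0.182. The lower histogram counts the 312 sites without a siEWS-FLI interval. The points lie under the line of equal pileups, with AMPD3 nearest to it.

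The called stretch was narrower with siEWS-FLI at 640 of the 657 shared sites. Their median width was 610 bases with siNEG and 315 with siEWS-FLI, and the 969 siNEG intervals had a median of 572. Summits stayed close: the siEWS-FLI summit lay a median of 49 bases from the siNEG summit (quartiles 21 and 102), and within 100 bases at 491 of the 657 sites (74.7%). At EGR1, an immediate early transcription factor gene, the summits were 456 bases apart. More than 1 siNEG summit was listed in 137 of the 969 intervals.

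The strongest members lay at genes with different functions. MBD3L1, a relative of the methyl-CpG-binding protein MBD3, had 1095 siNEG reads (Poisson 95% interval 1031 to 1162) and 108 siEWS-FLI reads (88.6 to 130) at chr19:8832076-8833063. Its summits were 11 bases apart, 359 bases inside the gene from its start. ZNF333, a zinc finger gene, had 682 (632 to 735) and 52 (38.8 to 68.2) at chr19:14689693-14690203, with summits 4 bases apart. At both sites the siEWS-FLI interval lay far under the siNEG interval.

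TSSC4, whose product is a factor of the U5 spliceosomal particle, had 555 siNEG and 47 siEWS-FLI reads. TRIM41, a ubiquitin ligase gene, had 570 and 123, the highest siEWS-FLI pileup of any member. MTMR4, a phosphoinositide phosphatase gene, had 510 and 59. The ratio at these 5 genes ran from 0.0762 at ZNF333 to 0.216 at TRIM41. TRIM41 had another strong site 971 bases upstream of its start, with 137 siNEG reads and no siEWS-FLI interval. The local siNEG background there was high, and at the same background a siEWS-FLI summit of 78 reads or fewer would not have been listed. The siEWS-FLI background there is not known and can be lower, which would lower that limit.

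Among the rest of the 15 highest −log10 q-values, 3 genes act in mitochondria. TFB1M, which methylates mitochondrial ribosomal RNA, had 314 siNEG and 27 siEWS-FLI reads. PARS2, the mitochondrial prolyl-tRNA synthetase, had 290 and 24. AURKAIP1, a mitochondrial ribosome protein also known to bind Aurora A, had 307 and 42. Their ratios were 0.0860, 0.0828 and 0.137, on either side of the median of 0.110 among the 117 shared members with at least 100 siNEG reads.

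CAP1, which recycles actin monomers, had 283 siNEG and 18 siEWS-FLI reads. HSPBP1, a nucleotide exchange factor of HSP70, had 281 and 27. P4HB, a protein disulfide isomerase of the endoplasmic reticulum, had 271 and 38. RPS19, a protein of the small ribosomal subunit, had a higher ratio than these, with 262 and 51 (ratio 0.195, 0.141 to 0.264). Its interval overlaps those of P4HB (0.140, 0.0971 to 0.197) and HSPBP1 (0.0961, 0.0622 to 0.143). MORC3, a nuclear body ATPase, had 235 and 21, and the zinc finger gene ZNF787 had 330 and 27. SMIM7, a small membrane protein gene, had 312 and 35. All 15 had a siEWS-FLI interval, and no ratio among them passed the 0.216 of TRIM41.

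A few members kept far more of their pileup. AMPD3, the gene of the erythrocyte AMP deaminase, had 134 siNEG reads (112 to 159) and 110 siEWS-FLI reads (90.4 to 133) at chr11:10507887-10508353. Its ratio of 0.821 (0.632 to 1.06) was the highest of all members and its interval includes equal pileups. The AMPD3 site lay 619 bases beyond the far end of the gene and not at its start, so its ratio is that of the site. How multiply mapped reads were treated is not given. Reads from similar sequence elsewhere were not tested for at this site or at any other high ratio. BRD3OS, read from the strand opposite BRD3, had 187 (161 to 216) and 82 (65.2 to 102), a ratio of 0.439. TBRG4, which acts on mitochondrial RNA, was another of the 10 highest siEWS-FLI pileups, with 196 and 44 reads.

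Among the 117 shared members with at least 100 siNEG reads the median ratio was 0.110. The highest after AMPD3 and BRD3OS were HDGFL2, a histone-binding protein gene (102 and 42 reads, 0.412), U2AF2, the large subunit of the splicing factor that reads the polypyrimidine tract (134 and 36, 0.269), and SP1, the factor that binds GC boxes (122 and 31, 0.254). The lowest were ZNF865 (233 and 9, 0.0386), STK4, the Hippo pathway kinase MST1 (141 and 6, 0.0426), and RIMOC1 (134 and 7, 0.0522). TSG101, of the ESCRT-I sorting complex (220 and 12, 0.0545), and C1QTNF6 (103 and 6, 0.0583) completed the 5 lowest. The ratio had an interval of 0.0174 to 0.0746 at ZNF865 and of 0.334 to 0.571 at BRD3OS. Both genes were chosen as extremes of the ratio, so these intervals do not test a difference.

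The other 9 sites with a ratio of 0.5 or more, besides AMPD3 and the uncharacterised LOC124905351 (22 and 17 reads), had 21 to 52 siNEG reads; they are named after their values were seen. SPATC1L had 52 and 28 reads, and OPA3, a mitochondrial protein gene, 33 and 18. ELMO2, which acts with DOCK proteins in cell movement, had 32 and 17, and ZSWIM8, a ubiquitin ligase adaptor gene, 28 and 14. OGDH, of the 2-oxoglutarate dehydrogenase complex, had 24 and 14. RABIF had 23 and 15, IFT70A 24 and 13, LIAT1 24 and 12, and FAM156A 21 and 12. With so few reads these ratios are imprecise, and that of OGDH had an interval of 0.279 to 1.17.

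The 312 members without a siEWS-FLI interval had a median siNEG pileup of 32 reads, against 51 at the shared ones. ACTB, the gene of cytoplasmic beta-actin, was the strongest, with 158 reads (134 to 185) at chr7:5529704-5530238. If the siEWS-FLI background equalled that of siNEG, a siEWS-FLI summit of 19 reads or fewer would not have been listed there. TAF13, a TFIID subunit gene, had 99 reads (80.5 to 121) at chr1:109075800-109076262, where the like limit was 12 reads. Such a limit had a median of 7 reads over the 312 sites. These limits can be too high, since the siEWS-FLI background was lower than the siNEG background at some shared sites. ZNF865 was called at 9 siEWS-FLI reads and STK4 at 6, where the siNEG backgrounds were 10.7 and 5.02. The lowest siEWS-FLI pileup of a shared site was 4 reads, so an absent interval is not shown to be an empty site.

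EP300, the histone acetyltransferase p300, had 86 siNEG reads 958 bases upstream of its start and no siEWS-FLI interval. ANTKMT, a methyltransferase for the mitochondrial adenine nucleotide carrier, had 100, and the zinc transporter gene SLC39A4 had 116. RLIM, a ubiquitin ligase known from X inactivation, and MARK2, a kinase of cell polarity, had 80 each. RPE, of the pentose phosphate pathway, had 79, RPS16, of the small ribosomal subunit, 74, and IQGAP1, a scaffold of the actin cortex, 69. Of the 121 members with 100 siNEG reads or more, 4 had no siEWS-FLI interval: ACTB, ANTKMT, SLC39A4 and the upstream site of TRIM41.

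Overlap followed siNEG strength. In 5 equal classes of −log10 q-value, the shared part rose from 43.3% (36.2 to 50.6) in the weakest to 55.2%, 65.8%, 79.9% and 94.8% (90.7 to 97.5) in the strongest. The median ratio of the shared sites went the other way, from 0.276 to 0.231, 0.205, 0.164 and 0.112. Weak members can be shared only if they kept enough signal to be called, which raises the ratio among them. Just inside the threshold of 20 lay GTF3C5 (−log10 q 20.00, 26 siNEG and 5 siEWS-FLI reads), ARRDC4 (20.01, 20 and 5) and BRWD3 (20.01, 20 and none called). Just outside lay BIRC6 (19.95, 24 and 8), B3GALNT2 (19.94, 25 and 17) and RFC2 (19.90, 28 and none called).

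Set beside the other strong sites, those at single gene ends were shared more often than sites away from gene ends. They were shared somewhat less often than sites at 2 or more gene ends over all strong sites, and about as often from 50 siNEG reads up. At 50 to 99 siNEG reads, 82.8% of 273 sites at single gene ends were shared (77.8 to 87.1), 82.5% of 137 at 2 or more gene ends (75.1 to 88.4), 63.0% of 81 inside genes (51.5 to 73.4) and 54.5% of 110 between genes (44.8 to 64.1). At 20 to 49 reads the shares were 54.6%, 61.2%, 31.5% and 28.5% in the same order. At 100 reads or more they were 96.7%, 96.6%, 86.7% and 75.8%, from 121, 58, 30 and 33 sites. Over all strong sites the share at single gene ends minus that at 2 or more gene ends was -5.71 points (-10.9 to -0.265). It stood above the share inside genes by 25.8 points (19.9 to 31.6) and above that between genes by 28.6 (22.8 to 34.2).

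The ratio of the shared sites also varied by location. At 50 to 99 siNEG reads its median was 0.152 at single gene ends, 0.143 at 2 or more gene ends, 0.153 inside genes and 0.224 between genes. At 100 reads or more it was 0.110, 0.116, 0.106 and 0.111. Regions of 1 library are not replicates, and no test was made of these differences.

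**Figure D2:**
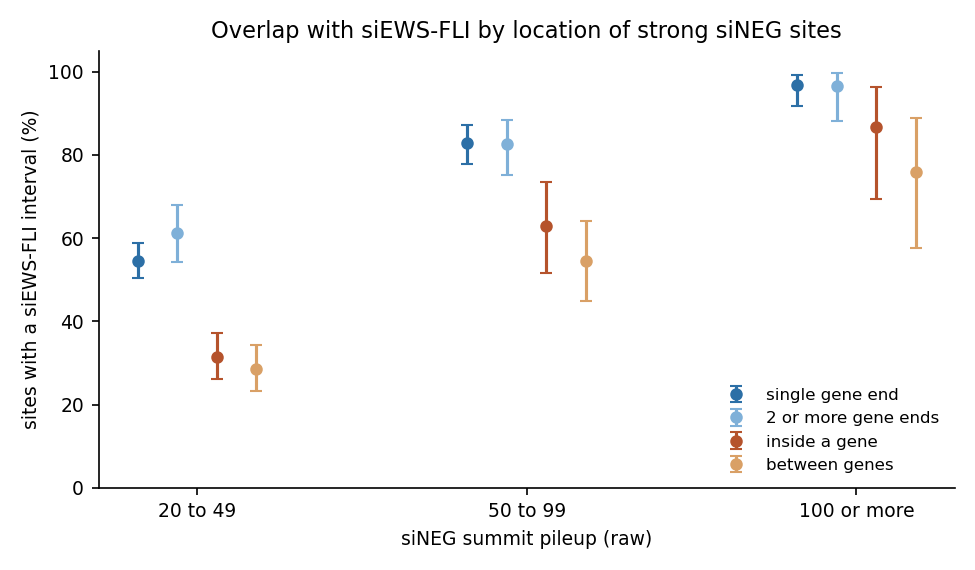
The share of strong siNEG sites with a siEWS-FLI interval (vertical, percent) is plotted for 3 classes of raw siNEG summit pileup (horizontal) and 4 locations, with exact binomial 95% intervals as bars. The points for single gene ends and for 2 or more gene ends lie close together at 50 to 99 reads, at 82.8% and 82.5%, above those inside genes and between genes.

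The strong sites lay at the starts of genes and mostly just upstream of them. The strand was known for the genes of 831 members, and the start was the nearest end at 805 of them (96.9%, 95.4 to 97.9), against 2843 of 2998 weaker sites at single gene ends (94.8%, 94.0 to 95.6). The summit was upstream of the start at 552 of the 805 (68.6%, 65.2 to 71.8) and at 59.3% of the weaker sites (57.5 to 61.1). Its median position was 103 bases upstream (quartiles -194 and 33, negative being upstream), against 61 for the weaker sites (-178 and 94). The strong summits were also more closely set, 87.1% from 300 upstream to 200 downstream against 77.6% of the weaker.

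**Figure D3:**
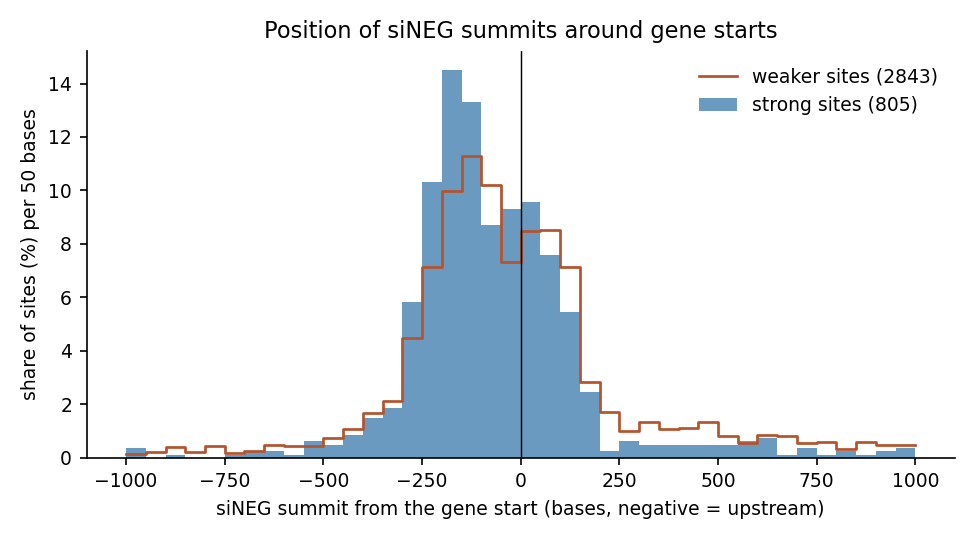
The horizontal axis gives the siNEG summit's distance from the nearest gene start in bases, negative being upstream, and the vertical axis the share of sites per 50 bases. Bars show 805 strong sites and the line 2843 weaker sites at single gene ends; both have peaks on either side of the start, and 68.6% of the strong sites and 59.3% of the weaker lie upstream.

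The shares with a siEWS-FLI interval had overlapping intervals on either side of the start. Of strong sites upstream of the start 66.8% were shared (62.7 to 70.8), and of those downstream 71.9% (66 to 77.4). Some sites far from the outer start lay at another start listed for the same gene. Of 93 sites over 300 bases away with a listed start, 27 were within 300 bases of another, among them MTMR4, whose site lay 883 bases inside the gene and 284 bases upstream of another start. In all, 719 of 790 sites (91.0%) were within 300 bases of a listed start.

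Only 26 strong sites had the far end of a gene as the nearest end, and 15 of these were shared (57.7%, 36.9 to 76.6), against 68.4% at starts (65.1 to 71.6). Besides AMPD3 they included RPL27A, of the large ribosomal subunit (159 siNEG and 18 siEWS-FLI reads), LOC128125816 (131 and 14) and GABARAP, an autophagy membrane protein gene (126 and 17). HDGF, a growth factor gene, had 83 and 6, CABLES1 78 and 14, and HES7, an oscillating repressor of the segmentation clock, 65 and 26. RELA, the p65 subunit of NF-κB, had 27 siNEG reads and ETV2, an ETS factor of blood and vessel development, 43, each with no siEWS-FLI interval. A lncRNA gene end lay within 1 kb of 5 of the 26, and of 256 of all 969 sites (26.4%). Sites with a lncRNA end nearby were shared in 68.4% and those without in 67.6%.

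The members lay on every chromosome used. Of 19974 protein-coding genes, 966 had a strong single-gene-end site (4.84%). Chromosome 19 held 141 of the sites (14.6%), at 9.72% of its 1451 genes, and the share was lowest on chromosome 13 (1.78%) and chromosome 4 (2.08%). By symbol patterns and short lists, 300 of the 966 genes fell into 36 families (31.1%, against 24.5% of all protein-coding genes). The patterns sort by name, so a few genes stand beside a family they only resemble, such as MBD3L1 among chromatin genes.

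Proteasome subunits and cytosolic ribosomal proteins had the highest shares of the 36 families. Of all 966 member genes 656 were shared, and the shared counts of each family are to be read beside that. Proteasome subunits had 9 of 50 genes (18.0%), 7 of them shared: ADRM1, the ubiquitin receptor, had 87 siNEG and 6 siEWS-FLI reads, and PSMD8 and PSMD2, of the regulatory lid and base, 77 and 11 and 39 and 4. Cytosolic ribosomal proteins followed with 14 of 84 (16.7%), 11 shared, and after RPS19 and RPL27A came RPS14 with 74 and 9. Translation initiation and elongation genes had 7 of 72 (9.72%), among them EIF2B2, of the guanine exchange factor of eIF2 (119 and 10), and EIF3G (115 and 11). EEF2KMT, a lysine methyltransferase that modifies elongation factor 2, kept a higher pileup, 89 and 42.

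Splicing factors had 20 of 145 genes (13.8%), 14 of them shared. SNRPB and SNRPE, core proteins of the spliceosomal particles, had 233 and 25 and 186 and 18 reads, and the RNA-binding HNRNPC 98 and 14. DEAD and DEAH box helicases had 8 of 53 (15.1%), 7 shared, led by DHX8, which releases spliced RNA (108 and 9). Nuclear pore and export genes had 6 of 59 (10.2%), with THOC5, of the THO export complex, at 152 and 11.

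Transcription and chromatin genes also lay above the share of all genes. RNA polymerase, TFIID and Mediator genes had 14 of 127 (11.0%), 10 shared, with TAF1B of the RNA polymerase I machinery at 82 and 6 and MED10 at 65 reads with no siEWS-FLI interval. Chromatin modifiers had 17 of 183 (9.29%), 14 shared, among them PCGF1, of a Polycomb complex (89 and 21), ING4 (78 and 7) and the maintenance methyltransferase DNMT1 (40 and 5). C2H2 zinc finger genes were the most numerous family, 47 of 559 (8.41%), of which 26 were shared and 21 were not. After ZNF333 and ZNF787 came ZNF7 with 247 and 20 reads, and then ZNF865.

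The list drawn up for the cell cycle, of CDK, CDC, cyclin, mitotic kinase, checkpoint and anaphase-promoting complex symbols, had 10 of 112 (8.93%), and all 10 were shared. Most of the 10 are known for other roles: CCNT1, CDK9 and CDK13 in transcription elongation, CDK11A and CDK11B in RNA processing, CDC42 in the actin cytoskeleton, and CDC37L1 with HSP90. ANAPC15, of the anaphase-promoting complex, had 148 and 23 reads. CCNT1 and CDK9, the cyclin T1 and kinase of the elongation factor P-TEFb, had 133 and 19 and 93 and 7, and CDK4, the G1 kinase, had 41 and 7. CDK11A (63 and 16) and CDK11B (39 and 8) are near-identical neighbours whose reads the aligner could split. DNA repair genes had 10 of 93 (10.8%), 6 shared, with ERCC6L2 at 53 and 15, PARP2, a poly(ADP-ribose) polymerase, at 43 and 17, and XRCC5, of the Ku end-binding dimer, at 53 with no siEWS-FLI interval. CLSPN, the adaptor that carries the ATR signal to CHK1, had 28 and 11.

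Vesicle traffic genes had 28 of 279 (10%), with VPS26C at 193 and 16 and the small GTPase gene RAB11A at 147 and 25. Mitochondrial import genes had 5 of 45 (11.1%), led by TOMM40, the channel of the outer membrane (182 and 28). Respiratory chain genes had 9 of 124 (7.26%), with UQCC4 at 134 and 32 and SDHB, of complex II, at 75 and 16. Phosphatases had 13 of 141 (9.22%), heat-shock proteins and chaperonins 9 of 94 (9.57%) and ubiquitin genes 21 of 350 (6%). These counts describe the families and no test was made of them. In the families named up to here, a siNEG summit of any strength lay within 1 kb of an end at a higher share of genes than the 34.2% of all genes. That share ran from 39.7% of phosphatases to 86.7% of mitochondrial import genes. The shares of strong sites do not allow for this, so they do not show that strong sites in particular were more frequent.

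Further families had shares from 4.17% to 8.11%. Aminoacyl-tRNA synthetases had 3 of 37 (8.11%), with CARS1 at 52 and RARS1 at 42 siNEG reads, neither with a siEWS-FLI interval, beside PARS2. Mitochondrial ribosomal proteins had 5 of 77 (6.49%), of which MRPL54 (79 and 12 reads) and MRPS23 (44 and 9) were shared. TMEM genes had 14 of 232 (6.03%), led by TMEM230 with 96 and 6. Actins and cytoskeletal regulators had 5 of 99 (5.05%), with MYH9, a non-muscle myosin heavy chain gene, at 97 and 8. Kinesins, tubulins and centromere proteins had 4 of 87 (4.60%), led by TUBB4B with 59 and 17. DNA replication genes had 2 of 48 (4.17%), POLD4 with 34 and 7 and POLA1 with 29 and no siEWS-FLI interval. Sites at ends of 2 or more genes are left out of these shares. Strong ones lay at 6 DNA replication genes, 7 aminoacyl-tRNA synthetases and 6 mitochondrial ribosomal proteins, against 817 of all 19974 genes. A siNEG summit of any strength lay within 1 kb of an end at 64.6%, 78.4% and 54.5% of these 3 families. For TMEM genes, cytoskeletal regulators and kinesins it was 39.7%, 41.4% and 41.4%, against 34.2% of all genes. The remaining 666 member genes fell into no family.

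Other families had shares under that of all genes. Solute carriers had 11 of 396 (2.78%), TRIM genes 2 of 75 (2.67%; TRIM41 and TRIM28, the latter a corepressor of zinc finger proteins, with 70 and 11 reads), collagens and integrins 1 of 74 (1.35%; ITGB1, 67 and 10), and SOX, FOX, HOX, PAX and NKX factors 1 of 133 (0.752%; FOXN2, 77 and 9). None was found among 392 olfactory receptors, 149 keratin genes, 155 interferon, interleukin and chemokine genes, 100 cadherins, 96 potassium channels or 71 replication-dependent histones. Some siNEG summit lay within 1 kb of an end at 50.7% of the histone genes, against 34.2% of all protein-coding genes. In the other families without a strong site named here, that share ran from 0.510% of olfactory receptors to 6.25% of potassium channels. In the families named before them it ran from 8.11% of collagens and integrins to 28.5% of solute carriers. Apart from the histones, these low counts therefore do not show that strong sites in particular were scarce. ETS factors had 2 of 27 (7.41%), ETV2 and ELK1 (25 and 4). The list drawn up for immediate early factors had 3 of 62 (4.84%, the share of all genes), EGR1 (128 and 10), DUSP12 (33 and 9) and JUN (30 and 8). It too was sorted by symbol, and DUSP12 may stand there by name only.

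A strong single-gene-end site was found at none of 40 genes that EWS-FLI1 is reported to activate, against 4.84% of all genes. Some siNEG summit lay within 1 kb of an end at 12 of them (30%), near the 34.2% of all genes, so neither count sets this short list apart. Neither EWSR1 nor FLI1 was among the 966 genes, and the level of the fusion was not measured by these data. Of 6 Ewing sarcoma marker genes none had a strong site, and CD99, NR0B1 and STEAP1 had a weaker summit at an end. No marker of hepatocytes or epithelium had any siNEG summit there, and of 4 T cell markers CD2 alone did. Lists of 4 to 6 genes are too short to be told from the 34.2% of all genes. These marks of cell type are genes with a summit, not expression.

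**Figure D4:**
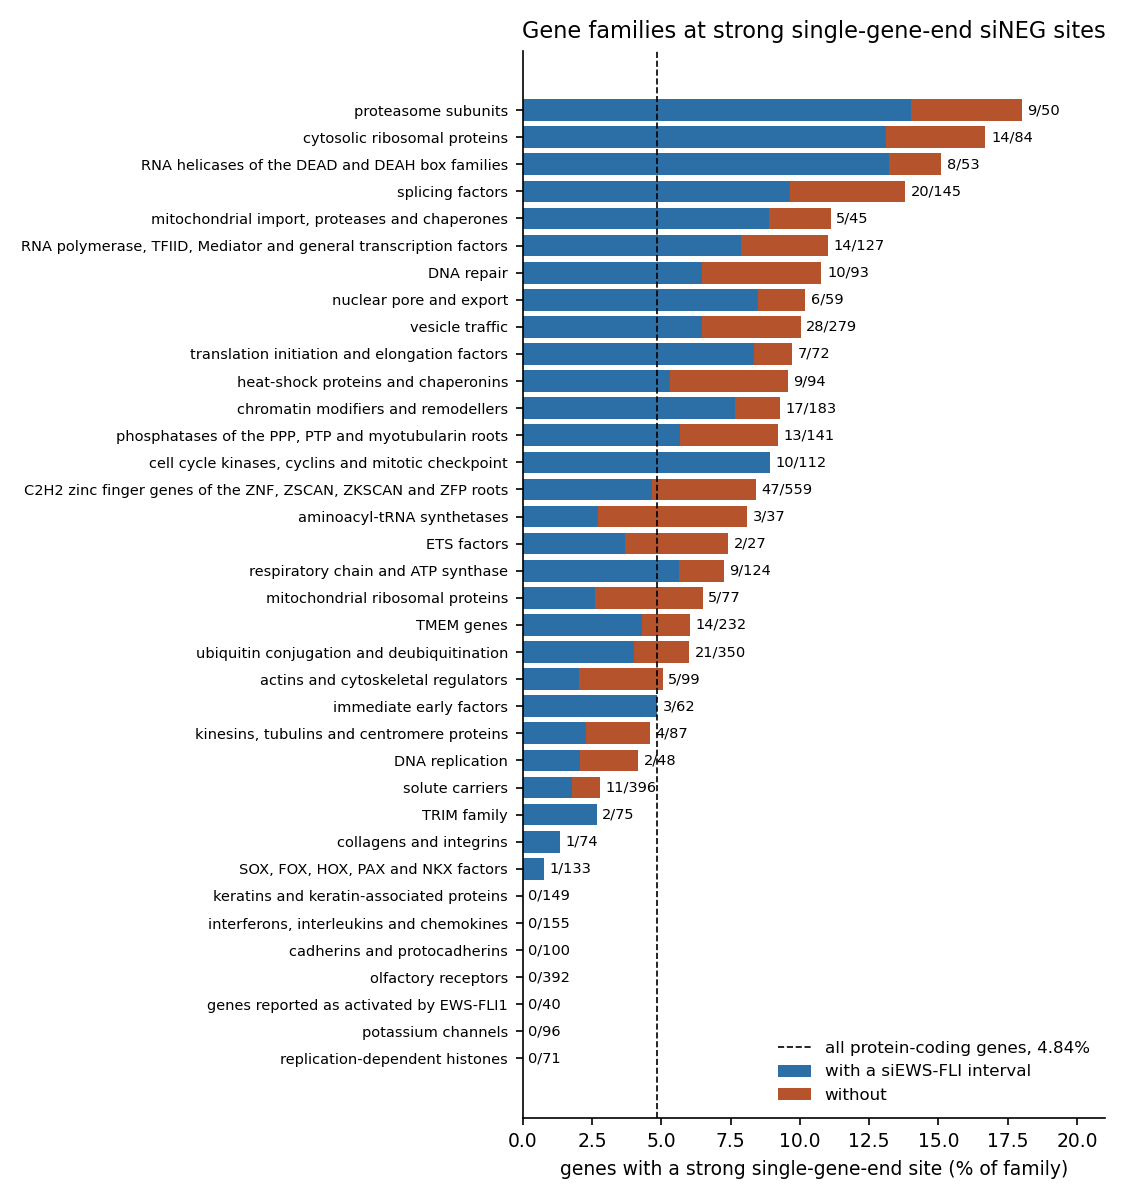
Bars give the percent of each family's genes with a strong single-gene-end siNEG site, split by whether that site had a siEWS-FLI interval, with the number of genes beside each bar and a dashed line at the 4.84% of all protein-coding genes. Proteasome subunits, at 9 of 50, and cytosolic ribosomal proteins, at 14 of 84, stand highest, and 7 families have none.

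The promoters of the member genes held the ETS match CCGGAAG far more often than others. The RefSeq table had a promoter at 791 members, and 399 of these (50.4%, 46.9 to 54.0) held it on either strand, against 22.2% of 2780 promoters at weaker single-gene-end sites (20.7 to 23.8) and 12.8% of all 22132 promoters in the table. It was held by 64.0% of the 100 strongest members with a promoter (53.8 to 73.4) and by 55.5% of 362 promoters at strong sites with 2 or more gene ends. The bare core GGAA, which lies inside that match, was in nearly every promoter, 97.7% of the members' and 95.2% of all. The doubled core GGAAGGAA was as rare at the members, 3.54% (2.36 to 5.08), as in all promoters (3.68%). A match is a description of letters and not a bound site.

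The share rose with the strength of the siNEG site. From the weakest class of −log10 q-value (under 2) upward, for single gene ends, it was 14.0%, 17.7%, 22.9% and 29.3% below the members' threshold. Above it, the share was 45.8% at −log10 q 20 to 50 (41.5 to 50.2), 56.2% at 50 to 100 and 67.1% at 100 or more (56.0 to 76.9). Strength chose the members, so the classes below the threshold are the ones outside that choice.

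Among the other motifs searched, some were more and some less frequent at members. The NFY element CCAAT was in 46.9% of the members' promoters (43.4 to 50.4), 40.9% of those at weaker sites and 34.6% of all. The SP element GGGCGG was in 79.3%, 77.5% and 56.3%. The TATA box TATAAA was in 3.16% (2.06 to 4.63), 4.21% and 9.46%, and the AP-1 site TGACTCA in 0.759% (0.279 to 1.64), 2.30% and 4.01%. Both were scarcer at the members than in all promoters.

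For the NRF1 site GCATGCG the shares at members and at all promoters were 7.21% and 4.63%. The YY1 site AAGATGG had 8.85% and 6.05%. The CREB/ATF site TGACGTC had 5.82% and 4.08%, and the E-box CACGTG had 11.1% and 8.34%. The ZNF143 element ACTACAA had 2.78% and 2.85%, and the element TCTCGCG had 6.95% and 4.58%. At the weaker single-gene-end sites these 6 stood at 3.96% to 10.3%, and each lay within the members' 95% interval. GC content was 65.3% at the members, 66.8% at weaker sites and 62.3% over all promoters, and the ratio of observed to expected CpG 0.871, 0.873 and 0.738.

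The matches lay near the summits. The 399 promoters held 563 matches, 132 of them had 2 or more, and the most in 1 promoter was 4. The match read in the gene's own direction 288 times and in the opposite direction 275 times. Its median position was 39 bases upstream of the start, and 74.4% of matches lay from 100 upstream to 50 downstream, close to the 71.4% of matches in all promoters. From the siNEG summit the nearest match was a median of 56 bases away (quartiles 24 and 98) at members and 78 (39 and 128) at weaker sites, and within 100 bases at 75.9% and 62.6%. Strong summits were also more closely set around the start than weaker ones, and the distances do not allow for that. At KIFC1, a mitotic kinesin gene, and THOC5 the summit fell on the centre of the match. At MBD3L1 and AURKAIP1 the match in the stretches above lay 380 and 210 bases from the summit.

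The bases around the match differed somewhat from those in all promoters. The base after it was T in 47.4% of the members' matches and 38.2% of all, as in the stretches of PARS2, CAP1 and HSPBP1 above. The base before it was A in 27.4% and 18.6%, and C in 21.5% and 33.5%. In ZNF333 and SMIM7 the match ran on into CGGAAG without a gap, so that a second core followed the first.

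Members with and without the match had similar shares of siEWS-FLI intervals. Of members with a match 67.9% had a siEWS-FLI interval (63.1 to 72.5), and of those without 69.6% (64.8 to 74.2). The match went with a higher siNEG pileup, with medians of 47 and 39 reads, and the siEWS-FLI pileup of the shared ones was 9 and 10. The median ratio of the shared ones was 0.156 with and 0.205 without the match. At −log10 q 20 to 50 the median siNEG pileups were close, 34 reads with the match and 33 without. The share was lower with the match there, 52.5% (46.0 to 58.9) against 62.6% (56.7 to 68.2), and the ratios were 0.205 and 0.243.

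At stronger sites the intervals overlapped, with shares of 88.0% and 84.6% at −log10 q 50 to 100, and of 98.2% and 100% at 100 or more. Their ratios were 0.140 and 0.151, and then 0.0964 and 0.128. Below the members' threshold, 1 class of 4 stood apart: at 10 to 20 the shares were 17.9% with the match (12.9 to 23.9) and 38.4% without (34 to 42.8), at a median of 17 siNEG reads in both. In the classes below that they were 13.5% and 14.6% at 5 to 10, 3.70% and 7.71% at 2 to 5, and 4% and 3.25% under 2, with overlapping intervals. Across the 7 classes the intervals with and without the match are apart at 10 to 20 alone. Overlapping intervals do not show equal shares, and no test was made.

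**Figure D5:**
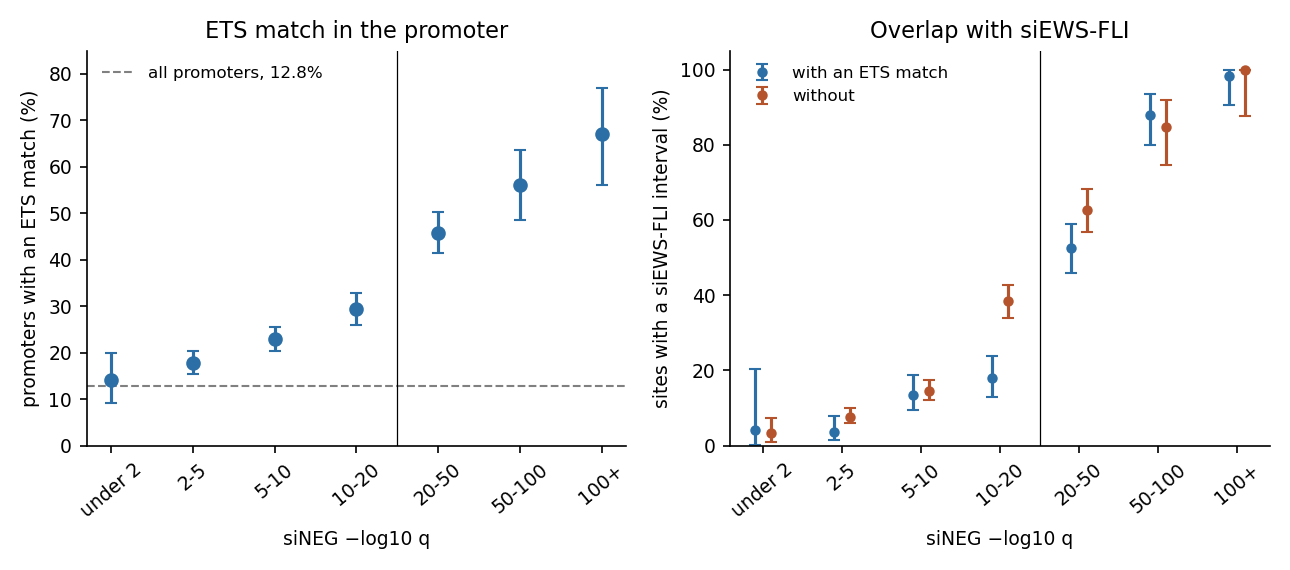
The horizontal axis of both panels gives classes of siNEG −log10 q-value of sites at single gene ends, with a line at the members' threshold of 20. The left panel plots the percent of promoters with CCGGAAG, which goes from 14.0% to 67.1%, and the right panel the percent of sites with a siEWS-FLI interval, with and without that match, which stand at 17.9% and 38.4% at 10 to 20 and have overlapping intervals in the other classes; bars are exact binomial 95% intervals.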

How the data were processed

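CUT&Tag was compared between 1 siEWS-FLI and 1 siNEG library of TC32 cells. Per the submitters' processing notes, the tools were MACS2 2.2.9.1, Bowtie2 2.4.5 and Trim Galore 0.6.6, and the genome was hg38. Whether a control library was used, how duplicate or multiply mapped reads were treated and which fragment settings applied is not given in the sources used here. Peaks were deposited by the authors per library. The deposited columns hold the interval, a fold enrichment (a linear ratio to the background estimated around it), a −log10 p-value, a −log10 q-value and an offset that places the summit. The −log10 q-values deposited by the authors began at 1.32 (siNEG) and 1.33 (siEWS-FLI). The deposited display score was not used.

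Lines with the same interval were merged, keeping the summit with the highest −log10 q-value. The summit pileup was recovered as the whole number that solves fold = (pileup + 1)/(background + 1) and the Poisson tail for the −log10 p-value, within 0.001 for values up to 10 and in proportion above. It was whole for 100% of the lines of each list, and the recovery and the overlap were tested on simulated data. The libraries' own backgrounds were 0.348 (siNEG) and 0.239 (siEWS-FLI) reads per base. Read totals are unknown, so depth is known only through these backgrounds. An interval is shared when at least 1 base overlaps a siEWS-FLI interval, and the strongest such interval gives its pileup. Shares carry exact Clopper-Pearson intervals and pileups exact Poisson intervals, which cover counting error only, and PCR reads are not independent molecules.

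RefSeq on GRCh38.p14, which shares the chromosome coordinates of hg38, gave gene positions and promoters. The gene table holds no strand or exons, so exons and introns were not told apart. Strand was taken from the promoter table, which matched 15813 of 19974 protein-coding genes. Motifs were searched as exact letters on both strands of the 300-base promoters, and overlapping matches were each counted. Families were sorted by symbol patterns and short lists.

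The members, families, motifs and named-gene rule were chosen with earlier results of these data known. The rule named the 15 members with the highest siNEG −log10 q-value, the 10 with the highest siEWS-FLI pileup, and the 10 strongest without a siEWS-FLI interval. It also named the 5 highest and 5 lowest ratios among shared members with at least 100 siNEG reads, up to 4 members per family, and the 3 intervals on each side of the threshold. Sites at far ends, sites with a ratio of 0.5 or more, the genes with 2 sites, and KIFC1, CDK4, CDK11A, CDK11B, CDC42, CDC37L1, CLSPN and DNMT1 were named after their values were seen. No p-value was computed, since each group has 1 library. Alternatives changed the overlap rule, the thresholds, the distance to a gene end and the siNEG pileup class. Computation used Python 3.11.15, pandas 2.3.3, numpy 2.4.6, scipy 1.17.1 and matplotlib 3.10.9.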

Additional observations from a re-analysis of the deposited data

How the results depend on the processing

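Over 34 alternatives, 17 left their result within its counting error or within 1.5 times its count, 15 moved it and 2 turned a direction. The shared part, 67.8% as reported, was 36.6% at a reciprocal overlap of 50%, 46.5% with siEWS-FLI −log10 q of at least 5, and 55.5% with siEWS-FLI intervals wider than 200 bases only. With the siNEG −log10 q minimum at 10, 30 or 50 it was 49.6%, 77.8% and 90.9%, over 1852, 622 and 319 sites; stricter rules on siEWS-FLI drop intervals and a higher siNEG minimum drops weak sites, by construction. The share at gene starts was 98.1% within 500 bases. The difference from sites at 2 or more gene ends, -5.71 points as reported, became 0.302 at siNEG pileups of 50 to 99 and 0.142 at 100 or more, and the cause was not tested. The difference from sites inside genes was 19.8 and 10 points in these classes and 13.5 at reciprocal overlap. From sites between genes it was 20.9 at 100 or more and 13.6 at reciprocal overlap. Members without a lncRNA end, an alternative chosen after seeing the data, were 713, of which 67.6% were shared. The median ratio ran from 0.130 to 0.185. No replicate could be left out. No paired analysis was possible because each group has 1 library. Sites of under 10 siEWS-FLI reads, 333 of the 657 shared ones, lie near the caller's limit, so loss of a call was not separable from depth there.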
